A study of Mus musculus with 9 samples.

Results

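H3K27me3, the trimethyl mark on lysine 27 of histone H3, was mapped by chromatin immunoprecipitation sequencing in mouse bone marrow cells, and the account below covers the stretches of the genome that carried it in every library. These were the 6336 autosomal regions, of 15836 autosomal and 18556 regions in all, that an interval of each of the 8 immunoprecipitated libraries overlapped by at least 1 bp. The regions are those of the deposited merge over all libraries, and 4 metformin (MET) libraries were set against 4 vehicle (VEH) libraries over both genotypes. Regions present in every library were chosen so that width and strength could be compared without the presence of a call entering the comparison, which also leaves out any region that one group lacks.

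The cells were Lin-ckit+, a fraction of stem and progenitor cells, enriched with magnetic kits from the marrow of female transplanted mice and never cultured. RH MET and RH VEH cells came from C57BL/6 mice with the Dnmt3afl-R878H/+ genotype, and WT MET and WT VEH cells from C57BL/6 mice with the Dnmt3a+/+ genotype. Both genotypes were crossed to Mx1-cre, whose interferon-inducible promoter drives recombination in blood cells and also in other tissues, so the controls carry the recombinase too. MET mice received metformin and VEH mice received vehicle for 1 month. Each of the 4 groups had 2 libraries, numbered 1 and 2 and given in that order in every pair of values below, and the labels do not say which animals they came from, whether animals were pooled, or their age.

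Polycomb repressive complex 2 writes H3K27me3, through EZH1 or EZH2, over silenced developmental genes, and complexes of the Polycomb repressive complex 1 family bind the mark. In blood progenitors the mark covers Hox clusters and the regulators of other tissues and of lineages not taken. DNMT3A is a de novo DNA methyltransferase, and its R878H allele matches the recurrent R882H change of human clonal hematopoiesis and leukemia. Metformin is a biguanide that inhibits mitochondrial complex I and activates the energy sensor AMPK.

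The regions held much of the marked genome. They made up 40.01% of autosomal merged regions and 67.4% of their length, 152 Mb in all. Their merged width had a median of 16.0 kb, with quartiles of 10.2 and 27.8 kb and a range of 400 bp to 432.2 kb, against a median of 6.2 kb for the 9500 autosomal regions that fewer libraries called. Of these, 3562 were called in 1 library and 983 in 7. A protein-coding start site lay in 3464 of the 6336 regions (54.7%), 1592 (25.1%) touched a gene without holding a start, 1082 (17.1%) lay outside protein-coding genes, and the remaining 198 are on an autosome whose start sites were not used.

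The sequences just before the start sites show what kind of promoter these domains cover, and 6 are printed from regions whose libraries did not overlap between treatments. Each runs from 250 bases before the start to the start itself, on the strand of the gene, from RefSeq on GRCm38.p6, the assembly of mm10, and capitals mark each CG dinucleotide, which reads the same on both strands. Pcdh8 (chr14:79771313-79771562, minus strand) and Car12 (chr9:66713436-66713685, plus strand) stand for regions with a larger width share in MET. Plpp4 (chr7:129256844-129257093, plus strand) stands for those with a smaller one. Zbed3 (chr13:95323355-95323604, plus strand) had a higher summit percentile in MET, and Rassf6 (chr5:90640528-90640777, minus strand) and Pitx3 (chr19:46148326-46148575, minus strand) had a lower one.
Pcdh8: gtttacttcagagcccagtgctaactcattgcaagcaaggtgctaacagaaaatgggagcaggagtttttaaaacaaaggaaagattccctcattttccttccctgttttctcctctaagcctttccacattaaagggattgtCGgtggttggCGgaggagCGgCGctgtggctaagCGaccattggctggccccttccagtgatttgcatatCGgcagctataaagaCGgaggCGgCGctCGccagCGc
Car12: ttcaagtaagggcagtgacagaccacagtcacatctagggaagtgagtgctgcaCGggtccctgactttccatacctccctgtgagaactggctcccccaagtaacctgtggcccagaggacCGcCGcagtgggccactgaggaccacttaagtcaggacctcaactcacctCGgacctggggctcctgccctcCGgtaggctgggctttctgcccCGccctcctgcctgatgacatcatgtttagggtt
Plpp4: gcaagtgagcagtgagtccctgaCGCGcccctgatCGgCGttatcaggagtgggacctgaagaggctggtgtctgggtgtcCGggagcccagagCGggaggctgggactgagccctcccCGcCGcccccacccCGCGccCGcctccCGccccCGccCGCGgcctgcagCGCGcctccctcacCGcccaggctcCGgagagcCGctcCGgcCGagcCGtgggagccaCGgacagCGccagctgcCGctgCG
Zbed3: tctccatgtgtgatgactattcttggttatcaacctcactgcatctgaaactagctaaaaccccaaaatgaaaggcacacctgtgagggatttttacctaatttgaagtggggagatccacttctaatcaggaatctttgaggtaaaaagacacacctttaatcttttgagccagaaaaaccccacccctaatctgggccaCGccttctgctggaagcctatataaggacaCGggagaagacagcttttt
Rassf6: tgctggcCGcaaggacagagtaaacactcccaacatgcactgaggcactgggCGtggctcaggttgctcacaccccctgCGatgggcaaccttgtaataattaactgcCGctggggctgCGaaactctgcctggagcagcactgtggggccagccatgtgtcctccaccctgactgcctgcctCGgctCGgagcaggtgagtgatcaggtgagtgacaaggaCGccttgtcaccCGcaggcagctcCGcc
Pitx3: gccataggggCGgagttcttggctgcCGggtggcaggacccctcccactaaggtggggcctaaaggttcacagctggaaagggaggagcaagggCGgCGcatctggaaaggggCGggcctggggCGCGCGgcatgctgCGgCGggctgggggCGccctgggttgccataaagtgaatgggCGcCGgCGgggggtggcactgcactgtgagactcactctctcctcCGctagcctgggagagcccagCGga

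The 6 windows ran from CG-poor to CG-rich. Plpp4 held 27 CG, Pitx3 16, Pcdh8 11, Rassf6 10, Car12 6 and Zbed3 2. Of 4900 annotated start sites inside the regions, with a median of 14 CG, 64.2% had at least 10 CG, against 51.3% of all 20085 autosomal protein-coding start sites, with a median of 10 CG. The start printed for Zbed3 lay in an interval of all 4 MET libraries and of no VEH library, although its region was called in all 8. It is 1 of 3 start sites of Zbed3 in that region, and the others are not reported. Of the 20085 autosomal start sites, 2452 lay in intervals of 1 to 7 libraries. How many of those split by treatment in this way was not counted. The starts printed for the other 5 genes lay in intervals of all 8 libraries.

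The libraries differed in ways that bear on both measures. MET libraries held 15098 and 13930 autosomal intervals in RH MET and 14670 and 14524 in WT MET, against 10956 and 11479 in RH VEH and 11000 and 14056 in WT VEH (exact permutation p = 0.0571, adjusted p = 0.157 over 11 such quantities). Autosomal covered length was 113 and 123 Mb in RH MET and 135 and 166 Mb in WT MET, against 76.8 and 136 Mb in RH VEH and 132 and 129.5 Mb in WT VEH (exact p = 0.514). RH VEH 1 stood apart, with the shortest covered length and a median highest summit height at the regions of 17, against 26 to 41 in the other libraries. Read depth is unknown. The part of these differences in the results was not tested. Values without RH VEH 1 are given beside some of the results, and not beside every one in which it was lowest.

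The labelled cell type was checked at marker genes, which a silencing mark can show only by its absence. Of 9 blood progenitor genes with a mapped start, 4 and 3 were covered in RH MET and 4 and 4 in WT MET, against 3 and 2 in RH VEH and 4 and 4 in WT VEH. The start sites of Ptprc, Runx1, Lyl1 and Cd48 lay in no interval of any library, while those of Tal1 and Gata2, both regulators of blood stem cells, lay in an interval of all 8, and those of the other 3 genes in some libraries. Of 13 stromal and endothelial genes with a mapped start, 7 to 8 were covered in each MET library and 7 to 8 in each VEH library, and of 11 mast cell, basophil and eosinophil genes, 1 to 2 were covered in both treatments. Housekeeping starts were covered for 0 to 1 of 22 genes. In bulk cells, fewer cells with the mark at a place and less mark per cell cannot be told apart.

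**Figure D1:**
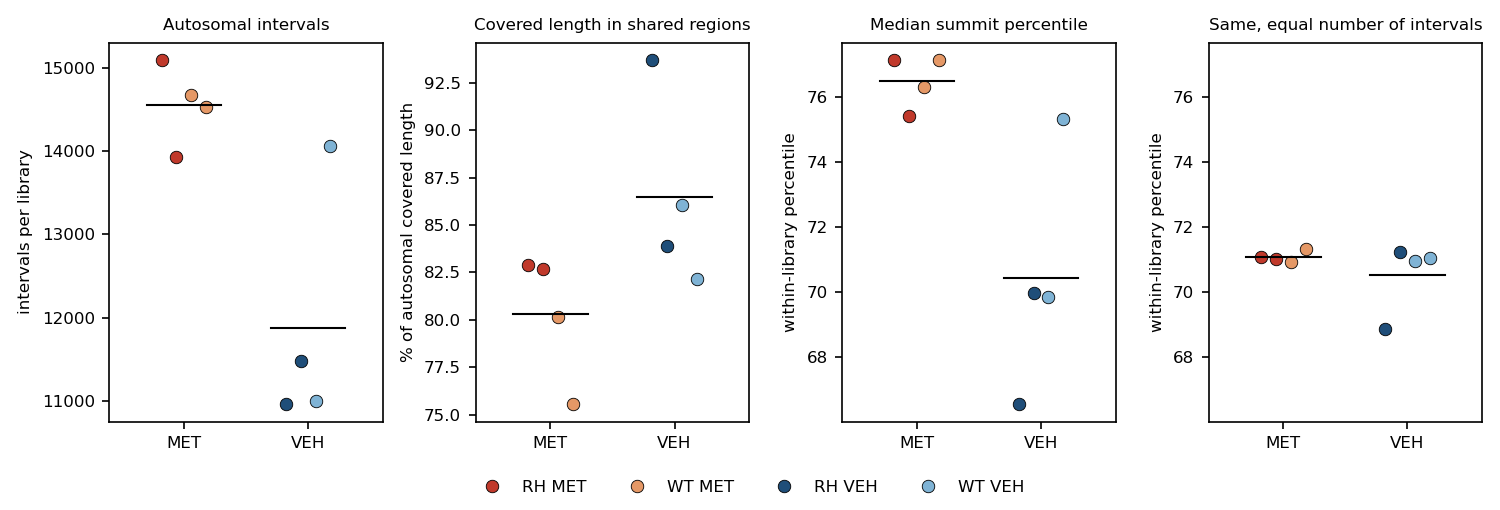
Per-library values for MET (left of each panel) and VEH (right): number of autosomal intervals, percentage of autosomal covered length inside the 6336 regions, median summit percentile of the regions, and the same median with the 10956 tallest intervals of each library. Points are libraries, coloured by genotype and treatment, and bars are means of 4; the treatments separate in the third panel by a small gap and overlap in the fourth.

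The regions took a smaller part of the marked genome in MET libraries, by less than the test could call. Regions held 82.9 and 82.7% of autosomal covered length in RH MET and 80.2 and 75.5% in WT MET, against 93.7 and 83.9% in RH VEH and 86.0 and 82.2% in WT VEH. The difference was -6.12 percentage points (exact permutation over 70 assignments, two-sided p = 0.0857, adjusted p = 0.171 over 6 values per library). WT VEH 2 lay among the MET libraries. Without it the difference was -7.55 points, and without RH VEH 1 it was -3.71 points. The exact p without WT VEH 2 was 0.0286, the smallest the assignments allow. That p was fixed by removing the only VEH library that overlapped MET, and adds no support.

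Width share is the covered length of a region in ppm of the autosomal covered length of its library, that is, in bp for each covered Mb. The median width share was 77.7 and 78.0 ppm in RH MET and 77.1 and 73.3 ppm in WT MET, against 88.6 and 82.3 ppm in RH VEH and 84.8 and 77.2 ppm in WT VEH. Its difference was -6.68 ppm (exact p = 0.0857, adjusted p = 0.171), with -4.89 ppm without RH VEH 1 and -8.68 ppm (exact p = 0.0286) without WT VEH 2. WT VEH 2 was again the only VEH library that overlapped MET, so that last p was fixed by its removal. The 638 widest regions, of at least 48.6 kb, held 30.9 and 31.2% of covered length in RH MET and 30.2 and 27.98% in WT MET, against 34.9 and 30.4% in RH VEH and 31.3 and 31.0% in WT VEH (difference -1.81 points, exact p = 0.2). Without RH VEH 1 that difference was -0.806 points.

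The absolute extent of the regions did not separate the treatments. A region was covered over a median of 61.1 and 65.2% of its merged width in RH MET and 69.6 and 81.8% in WT MET, against 46.2 and 76.2% in RH VEH and 75.8 and 68.2% in WT VEH. The difference was 2.83 points (exact p = 0.8), and its sign turned to -3.98 points without RH VEH 1 and to -1.28 points without WT MET 2. Total covered length inside the regions was 93.9 and 102 Mb in RH MET and 108 and 126 Mb in WT MET, against 71.9 and 114 Mb in RH VEH and 114 and 106 Mb in WT VEH (exact p = 0.714). Each region was split into 1.64 and 1.54 intervals on average in RH MET and 1.53 and 1.39 in WT MET, against 1.52 and 1.35 in RH VEH and 1.35 and 1.53 in WT VEH (difference 0.0842, exact p = 0.171).

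Intervals outside the regions, whose length enters every width share through the total, were more numerous on average in MET libraries without passing the test. They numbered 4732 and 4184 in RH MET and 4981 and 5744 in WT MET, against 1318 and 2912 in RH VEH and 2441 and 4372 in WT VEH (exact p = 0.0571, adjusted p = 0.157 over 11 quantities). They covered 19.4 and 21.3 Mb in RH MET and 26.8 and 40.7 Mb in WT MET, against 4.83 and 21.9 Mb in RH VEH and 18.5 and 23.1 Mb in WT VEH (exact p = 0.2). By interval number WT VEH 2 lay within the MET range, and by length so did RH VEH 2.

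Over single regions, none passed the test for width share. limma on the log2 width share, with genotype in the fit and Benjamini-Hochberg adjustment over 6336 regions, called 0 regions higher and 0 lower in MET, with a smallest adjusted p of 0.757. At an unadjusted p under 0.05 there were 67 higher (1.06%) and 317 lower (5.0%). The median difference was -0.13 on the log2 scale, and 70.7% of regions had a smaller mean share in MET. The median was -0.08 without RH VEH 1 and -0.01 with equal interval numbers, and it turned to 0.07 in covered bp. Replicates of one group differed by a median SD of 0.312 on the same scale.

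The 4 MET libraries all lay above the 4 VEH libraries in 17 regions (0.268% of those tested) and all below them in 179 (2.83%), together 3.09%. These counts depend on the scale. With each library centred on its own median share the counts were 63 higher and 67 lower, with 10956 intervals taken from each library 43 and 59, with the covered length within the regions as the total 50 and 84, and with covered length in bp 47 and 11. Leaving out 1 library gives 41 to 67 regions higher and 241 to 458 lower, the most of the lower ones without WT VEH 2 and the fewest without WT MET 2. With fewer libraries such a count can only stay or rise, so the rise itself says nothing about the treatments. The named regions below were taken in order of size from the 17 and the 179, so their separation is how they were chosen and is given as description.

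**Figure D2:**
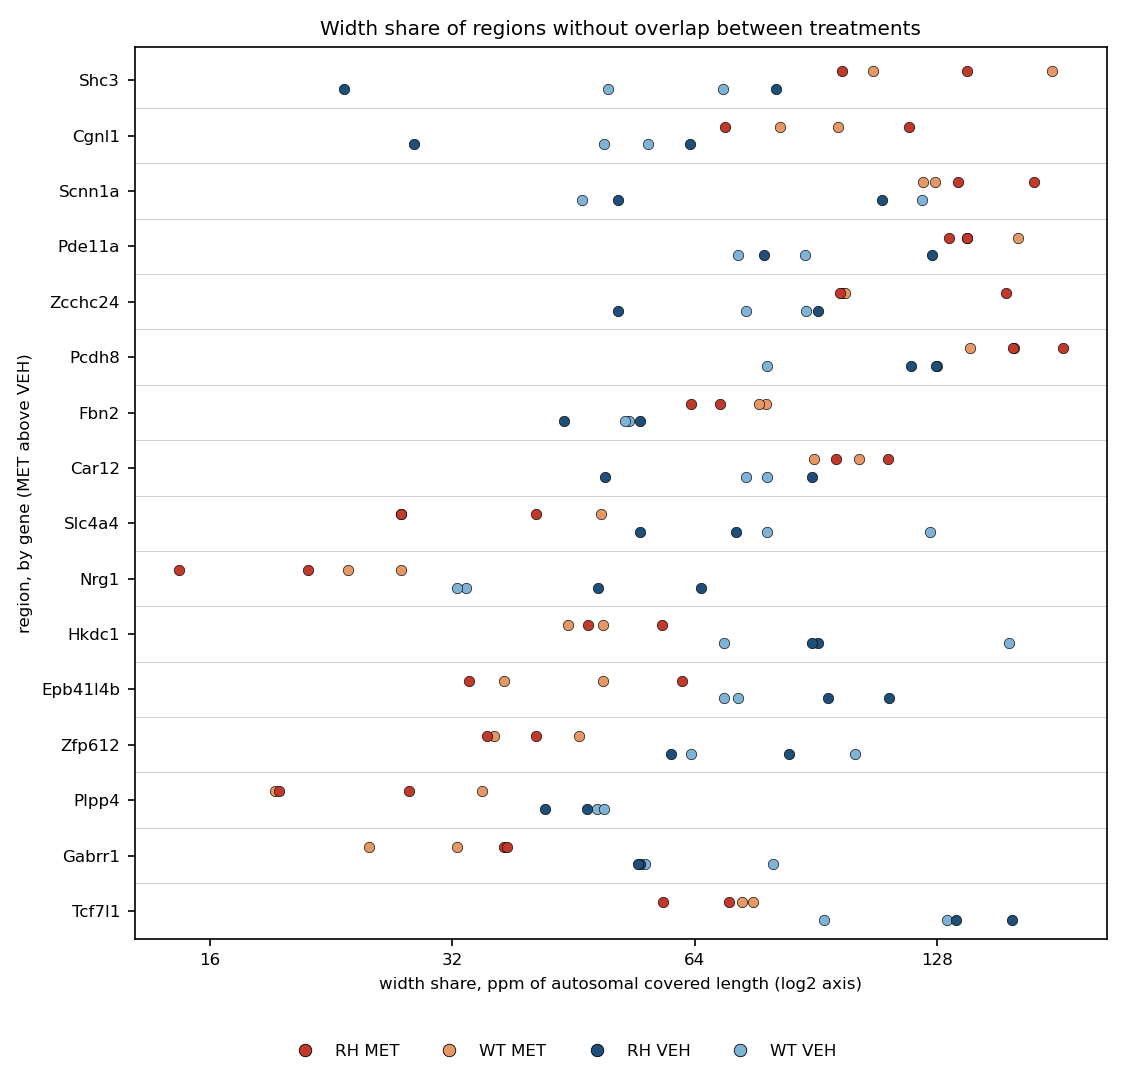
Width share (ppm of the library's autosomal covered length, log2 axis) of the 16 named regions in each of the 8 libraries, MET above VEH within each row. The first 8 rows have a larger share in all 4 MET libraries and the last 8 a smaller one; Shc3 has the widest gap between means among the first 8, with 97.5 to 178 ppm in MET and 23.4 to 80.8 ppm in VEH.

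The named regions with a larger width share in MET lay over Shc3, Cgnl1, Scnn1a, Pde11a, Zcchc24, Pcdh8, Fbn2 and Car12, and Zcchc24, Pcdh8 and Car12 held the start of their gene, while for Fbn2 start sites were not used. Pcdh8, a protocadherin of cell adhesion whose start lies in its region (chr14:79762601-79790600), had 184 and 159 ppm in RH MET and 141 and 159.9 ppm in WT MET, against 128 and 119 ppm in RH VEH and 78.7 and 128 ppm in WT VEH. Its covered length was 20.8 and 19.6 kb in RH MET and 19 and 26.6 kb in WT MET, against 9.8 and 16.2 kb in RH VEH and 10.4 and 16.6 kb in WT VEH. MET libraries covered 21.5 ± 3.48 kb and VEH libraries 13.2 ± 3.65 kb (SD, n = 4 each). The covered length was greater in each MET library than in every VEH library in bp as well as in share. The log2 difference in share was 0.53 ± 0.20 (SE), 0.66 beyond the median of all regions, with a limma adjusted p of 0.790. Its summit percentile, defined below, averaged 89.9 ± 1.33 in MET and 89.8 ± 0.164 in VEH, so width separated the treatments there and the rank within a library did not.

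Shc3, an adaptor of receptor tyrosine kinases in neurons (chr13:51428801-51473400, within the gene), had 139 and 97.5 ppm in RH MET and 107 and 178 ppm in WT MET, against 23.4 and 80.8 ppm in RH VEH and 49.9 and 69.5 ppm in WT VEH. RH VEH 1 was the lowest and the highest VEH library stayed below the lowest MET library. The covered length also did not overlap between treatments, with 15.8 and 12 kb in RH MET and 14.4 and 29.6 kb in WT MET, against 1.8 and 11 kb in RH VEH and 6.6 and 9 kb in WT VEH. The log2 difference was 1.32 ± 0.36 (adjusted p = 0.757, limma), and over the fits that left out 1 library it ran from 0.947 to 1.66.

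Fbn2, the microfibril protein fibrillin 2 on chromosome 18, was, with Shc3 and Pcdh8, one of the 3 regions of the 8 that also separated in bp. It had 68.9 and 63.4 ppm in RH MET and 78.6 and 76.9 ppm in WT MET, against 54.7 and 44.1 ppm in RH VEH and 53.0 and 52.5 ppm in WT VEH, and the log2 difference was 0.49 ± 0.17. Fbn2 had the smallest standard error of the 8. It stayed separated with an equal number of intervals, as did Cgnl1 and Car12.

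Cgnl1, a junction protein (chr9:71714601-71732800, within the gene), had 118 and 69.9 ppm in RH MET and 96.4 and 81.7 ppm in WT MET, against 28.7 and 63.2 ppm in RH VEH and 56.0 and 49.4 ppm in WT VEH, a log2 difference of 0.93 ± 0.28. Car12, a membrane carbonic anhydrase with its start in the region (chr9:66706601-66722000), had 111 and 95.9 ppm in RH MET and 102 and 90.2 ppm in WT MET, against 49.5 and 89.7 ppm in RH VEH and 74.2 and 78.7 ppm in WT VEH, a difference of 0.48 ± 0.22. RH VEH 1 was the lowest library in both, and without it the Car12 difference was 0.279. Over the fits that left out 1 library the Cgnl1 difference ran from 0.663 to 1.12. Scnn1a, the alpha subunit of the epithelial sodium channel, had 123 to 169 ppm in MET libraries and 46.3 to 123 ppm in VEH libraries, a gap of under 1 ppm between WT MET 1 and WT VEH 1. Pde11a, a cyclic nucleotide phosphodiesterase, had 132 to 162 ppm in MET libraries and 72.6 to 126 ppm in VEH libraries, and the zinc finger gene Zcchc24 had 97.1 to 156 ppm in MET libraries and 51.4 to 91.2 ppm in VEH libraries. Median centring left all 8 regions separated.

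The named regions with a smaller width share in MET lay over Slc4a4, Nrg1, Hkdc1, Epb41l4b, Zfp612, Plpp4, Gabrr1 and Tcf7l1, and Plpp4 alone held the start of its gene. Tcf7l1, a transcription factor of the Wnt pathway (chr6:72647401-72668400, within the gene), had 70.6 and 58.5 ppm in RH MET and 75.6 and 73.3 ppm in WT MET, against 159 and 135 ppm in RH VEH and 132 and 92.6 ppm in WT VEH. Its covered length was 8 and 7.2 kb in RH MET and 10.2 and 12.2 kb in WT MET, against 12.2 and 18.4 kb in RH VEH and 17.4 and 12 kb in WT VEH, which overlapped between treatments. The log2 difference in share was -0.88 ± 0.21 (adjusted p = 0.757, limma), -0.75 beyond the median of all regions. Its summit percentile went the other way, with 67.3 and 64.4 in RH MET and 57.7 and 60.05 in WT MET, against 27.1 and 48.0 in RH VEH and 42.9 and 24.5 in WT VEH. In MET libraries the region at Tcf7l1 took less of the covered length and ranked higher by its highest summit.

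Tcf7l1 was one of 23 regions, of 6336, that separated the treatments in both measures. All 23 had a smaller share and a higher percentile in MET. These were also the frequent directions of each measure alone, with 179 regions (2.83%) and 643 regions (10.1%). The opposite directions held 17 and 6 regions. Whether 23 exceeds the overlap that these shares would give was not tested. Epb41l4b, a FERM domain protein, was another of the named regions among the 23 (chr4:57002201-57017600), with 33.5 and 61.8 ppm in RH MET and 37.1 and 49.3 ppm in WT MET, against 93.8 and 112 ppm in RH VEH and 69.6 and 72.6 ppm in WT VEH. Its percentiles were 33.6 to 36.4 in MET libraries and 16.0 to 32.6 in VEH libraries. That percentile difference of 10.8 points changed sign, to -4.56, with an equal number of intervals. Across all regions the 2 differences had a Pearson r of 0.0965, given as a description because regions share libraries.

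Zfp612, a zinc finger gene (chr8:110070601-110087800), had 35.3 and 40.6 ppm in RH MET and 46.0 and 36.1 ppm in WT MET, against 59.9 and 83.8 ppm in RH VEH and 101 and 63.3 ppm in WT VEH, and its difference was -0.94 ± 0.21. The RH and WT differences of Zfp612 were -0.90 and -0.98. Hkdc1, a hexokinase-like enzyme (chr10:62392401-62412800), had 58.3 and 47.1 ppm in RH MET and 44.5 and 49.3 ppm in WT MET, against 91.2 and 89.7 ppm in RH VEH and 69.6 and 157 ppm in WT VEH, and WT VEH 2 was the highest. Gabrr1, a rho subunit of GABA receptors (chr4:33141801-33152400), had 37.1 and 37.4 ppm in RH MET and 25.2 and 32.5 ppm in WT MET, against 54.7 and 54.4 ppm in RH VEH and 80.2 and 55.6 ppm in WT VEH. Hkdc1 had a difference of -0.97 ± 0.26 and Gabrr1 one of -0.89 ± 0.21, so the differences of Zfp612, Hkdc1 and Gabrr1 lay closer to each other than their standard errors.

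Plpp4, a phospholipid phosphatase whose CG-rich start is printed above (chr7:129252401-129260600), had 28.2 and 19.5 ppm in RH MET and 19.3 and 34.9 ppm in WT MET, against 41.7 and 47.0 ppm in RH VEH and 48.4 and 49.4 ppm in WT VEH. All 4 VEH libraries lay within 8 ppm of each other there, while MET libraries were spread more widely. Slc4a4, a sodium bicarbonate cotransporter (chr5:88799401-88816000), had the largest difference of the 8, -1.17 ± 0.27, with 27.6 to 48.9 ppm in MET libraries and 54.7 to 126 ppm in VEH libraries. Nrg1, the neuregulin ligand of ERBB receptors (chr8:32285801-32296400), had 14.6 to 27.6 ppm in MET libraries and 32.4 to 65.1 ppm in VEH libraries. Its difference was -1.68 in RH and -0.36 in WT. With an equal number of intervals Hkdc1, Zfp612, Plpp4, Gabrr1 and Tcf7l1 stayed separated, with median centring 6 of the 8 did, and in covered bp 0 did.

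The summit percentile ranks strength within a library: it is the place of a region's highest summit among all autosomal summits of that library. The median over regions was 77.1 and 75.4 in RH MET and 76.3 and 77.2 in WT MET, against 66.5 and 69.98 in RH VEH and 69.8 and 75.3 in WT VEH. All 4 MET libraries lay above all 4 VEH libraries, with a difference of 6.08 points (exact permutation, two-sided p = 0.0286, the smallest possible, adjusted p = 0.171 over 6 values). The gap between RH MET 2 and WT VEH 2 was 75.41 against 75.35. Without RH VEH 1 the difference was 4.78 points and without WT VEH 2 it was 7.71, each with an exact p of 0.0286, and without any one of the 4 MET libraries the p was 0.0571. Leaving out a library could not bring overlap, so these p-values add no support. The difference was 8.01 points in RH and 4.14 in WT, and permutation within genotype gave p = 0.0556, the smallest that 36 assignments allow.

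Median percentiles above 75 were found in the 5 libraries with the most intervals, the 4 MET libraries and WT VEH 2, and those of the other 3 were at or below 70. When each library was reduced to its 10956 tallest intervals, the number held by RH VEH 1, the median was 71.1 and 71.0 in RH MET and 70.9 and 71.3 in WT MET, against 68.9 and 71.2 in RH VEH and 71.0 and 71.1 in WT VEH. The difference was then 0.560 points (exact p = 0.486), and RH VEH 1 alone lay apart. The median width share differed by -0.544 ppm on the same intervals.

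**Figure D3:**
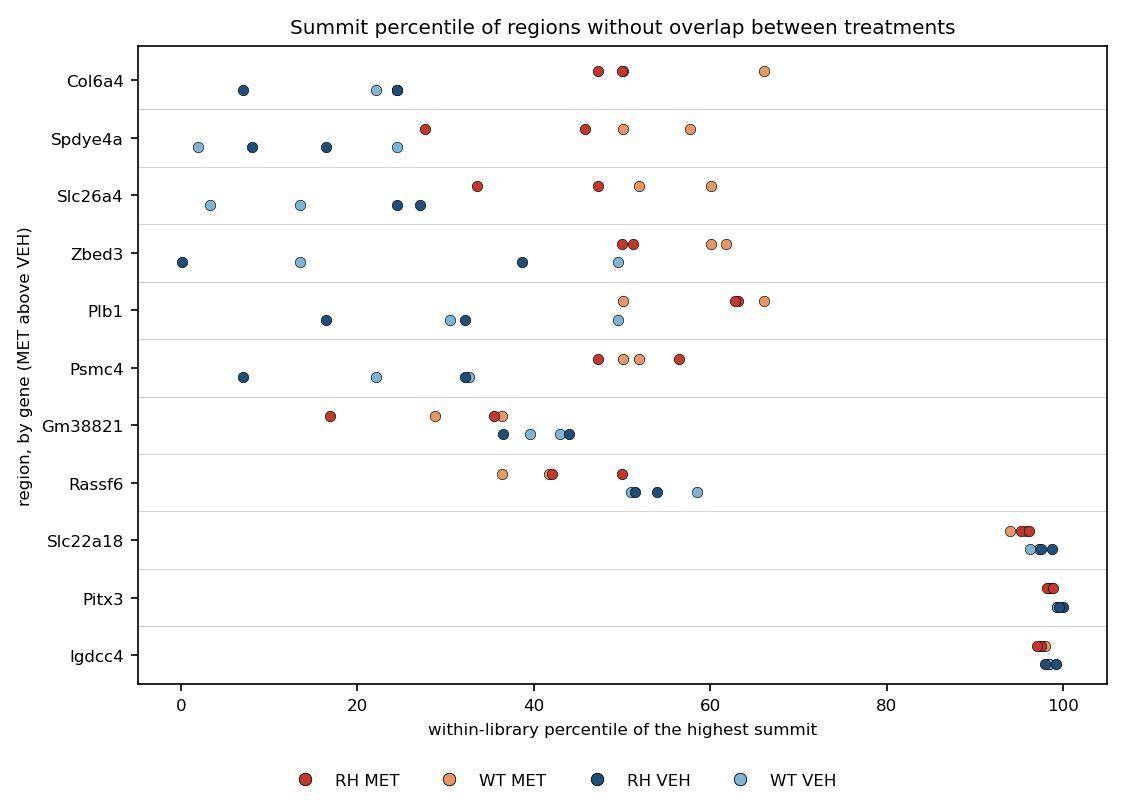
Within-library percentile of the highest summit of the 11 named regions in each of the 8 libraries, MET above VEH within each row. The first 6 rows are higher in all 4 MET libraries and the last 5 lower; Col6a4 ranges from 47.2 to 66.1 in MET and from 7.02 to 24.5 in VEH, and Pitx3 lies above 98 in every library.

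Over single regions the percentile was higher in MET in most, and none passed the test. limma called 0 regions higher and 0 lower, with a smallest adjusted p of 0.170, while 1297 (20.5%) were higher and 6 (0.0947%) lower at an unadjusted p under 0.05. The mean percentile was higher in MET in 90.4% of regions, with a median difference of 4.69 points against a median SD within groups of 4.77 points. That median difference was 3.72 points without RH VEH 1, 0.135 with equal interval numbers, -0.037 among the regions alone and -1.39 with the median of each library subtracted. The treatments did not overlap in 643 regions higher in MET (10.1%) and 6 lower (0.0947%). The split moved with the scale. It was 81 higher and 67 lower with an equal number of intervals, 78 and 84 with percentiles taken among the regions alone, and 99 and 561 with the median of each library subtracted. Without WT VEH 2 it was 1814 higher and 17 lower, though a count of this kind can only stay or rise when a library is left out.

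The named regions with a higher percentile in MET had low mean ranks in VEH, which follows in part from how they were picked. Col6a4, a chain of collagen VI (chr9:105973401-105992200), had percentiles of 47.2 and 49.99 in RH MET and 66.1 and 50.1 in WT MET, against 7.02 and 24.5 in RH VEH and 22.2 and 24.5 in WT VEH. Its highest summit was 15 and 16 in RH MET and 24 and 18 in WT MET, against 7 and 11 in RH VEH and 11 and 12 in WT VEH as deposited. WT MET 1 and RH VEH 1 were the farthest from their groups. The percentile difference was 33.8 ± 4.83 points (SE, limma adjusted p = 0.170), and Col6a4 was the one region of these 6 that stayed separated with an equal number of intervals. Its width share averaged 64.1 ± 25.9 ppm in MET and 63.3 ± 43.3 ppm in VEH (SD, n = 4 each), a difference smaller than either spread.

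Zbed3, an Axin-binding protein of the Wnt pathway (chr13:95301801-95328200), had percentiles of 51.3 and 49.99 in RH MET and 61.8 and 60.05 in WT MET, against 0.196 and 38.6 in RH VEH and 13.5 and 49.6 in WT VEH. WT VEH 2 came close to the MET libraries, and in RH VEH 1 the region was among the weakest of the whole library. The region was covered over 8.4 and 15.8 kb in RH MET and 17.2 and 15.8 kb in WT MET, against 4 and 19.6 kb in RH VEH and 17.2 and 3.8 kb in WT VEH, so the printed start lay outside intervals in VEH libraries that covered most of the region as well as in those that covered little of it. Psmc4, an ATPase of the proteasome cap (chr7:28049601-28071200), had percentiles of 47.2 and 56.5 in RH MET and 51.9 and 50.1 in WT MET, against 7.02 and 32.2 in RH VEH and 22.2 and 32.6 in WT VEH. Its own start, with 29 CG, lay in an interval of no MET library and of 2 VEH libraries. That start, at chr7:28050093, is near the lower end of the region, and the gene runs out of it on the minus strand. Most of the region lies before the gene, so the percentiles describe the region and not the body or start of Psmc4.

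Spdye4a, a member of the Speedy family of cell cycle regulators, had percentiles of 27.7 to 57.7 in MET libraries and 2 to 24.5 in VEH libraries. Slc26a4, the anion exchanger pendrin, had percentiles of 33.6 to 60.05 in MET libraries and 3.28 to 27.1 in VEH libraries. Plb1, a phospholipase B, had percentiles of 50.1 to 66.1 in MET libraries and 16.5 to 49.6 in VEH libraries, with WT MET 2 and WT VEH 2 separated by under 1 point. In all 6 regions the mean percentile in VEH was below 50, against a median of 74.0 over all regions and libraries. They were picked as the largest rises on a scale with an upper end, where high-ranked regions cannot rise as far. Their low ranks are therefore no result about which regions differ.

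Few regions ranked lower in every MET library than in every VEH library. Of these 6, 5 lay at a protein-coding gene, and 3 of these 5 were near the top of the ranks in every library. Pitx3, a homeobox regulator of lens and midbrain dopamine neurons (chr19:46113601-46153800), had percentiles of 98.1 and 98.8 in RH MET and 98.4 and 98.5 in WT MET, against 99.9 and 99.5 in RH VEH and 99.2 and 99.2 in WT VEH. Igdcc4, an immunoglobulin superfamily receptor (chr9:65096001-65170400), had percentiles of 97.5 and 97.0 in RH MET and 97.6 and 97.9 in WT MET, against 99.1 and 97.9 in RH VEH and 98.4 and 98.4 in WT VEH. The region at Slc22a18, an imprinted transporter gene, also holds the imprinted growth regulator Phlda2 (chr7:143488601-143511400) and had percentiles of 95.2 and 96.1 in RH MET and 94.0 and 95.8 in WT MET, against 98.8 and 97.5 in RH VEH and 97.2 and 96.2 in WT VEH. These differences were -0.990 ± 1.24, -0.980 ± 1.26 and -2.13 ± 1.33 points (SE), with limma adjusted p of 0.622, 0.633 and 0.368. The means of the treatments lay less than 3 points apart at all 3. Their highest summits as deposited overlapped, with ranges that lay higher in MET. They were 88 to 111 in MET and 62 to 101 in VEH at Pitx3, and 77 to 105 in MET and 50 to 91 in VEH at Igdcc4. At Slc22a18 they were 73 to 92 in MET and 48 to 79 in VEH, and any scaling of heights between libraries is not stated.

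Rassf6, a Ras association domain protein whose start is printed above (chr5:90637401-90642400), had percentiles of 42.0 and 49.99 in RH MET and 36.4 and 41.7 in WT MET, against 54.0 and 51.4 in RH VEH and 51.0 and 58.5 in WT VEH, a difference of -11.2 ± 3.23 points. Its summit heights were 14 and 16 in RH MET and 14 and 16 in WT MET, against 13 and 16 in RH VEH and 16 and 19 in WT VEH, so that MET and VEH heights overlapped while the ranks did not. Gm38821, a predicted gene, had percentiles of 16.9 to 36.4 in MET libraries and 36.5 to 43.9 in VEH libraries. The gap there was between 36.37 in WT MET 1 and 36.51 in RH VEH 1. Its summit heights overlapped, with 11 to 14 in MET and 10 to 14 in VEH. Rassf6, Slc22a18, Pitx3 and Igdcc4 stayed separated with an equal number of intervals.

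**Figure D4:**
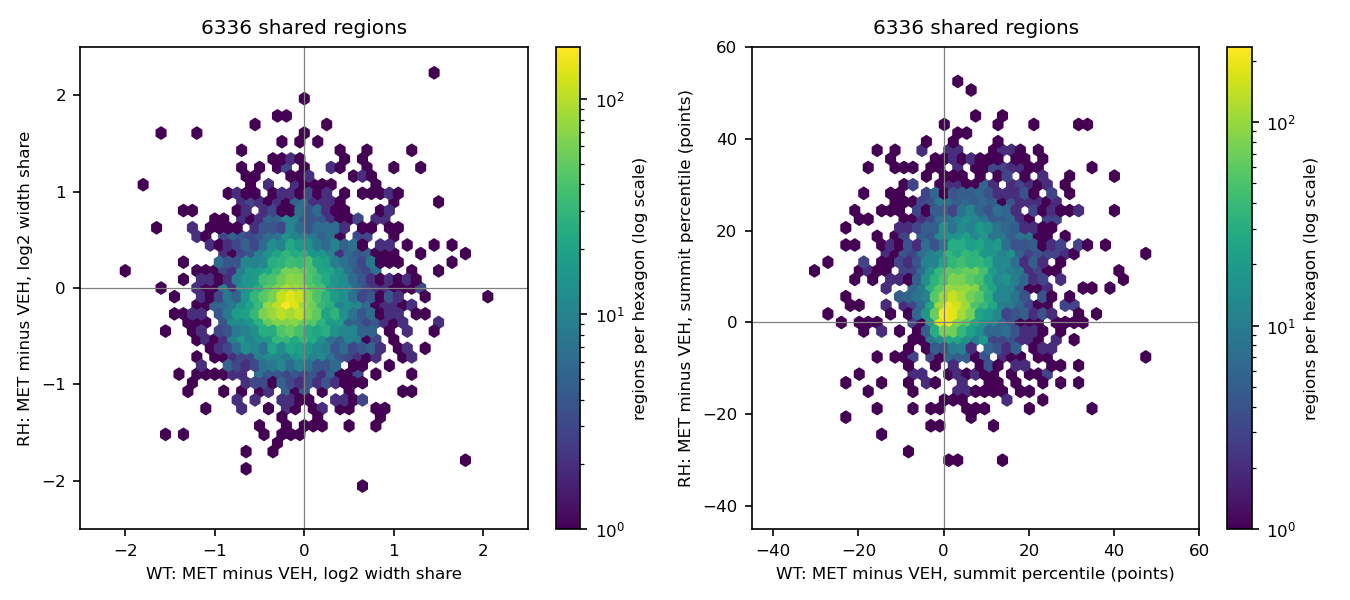
Difference between MET and VEH in RH cells (vertical axis) against that in WT cells (horizontal axis) for the 6336 regions, as log2 width share (left) and summit percentile points (right); colour gives regions per hexagon on a log scale. The cloud of width differences is centred below 0 on both axes and nearly round, and that of percentiles is centred above 0 on both.

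The genotypes were set side by side, since no library is shared between the RH and the WT difference. The median width share difference was -0.14 in RH and -0.14 in WT on the log2 scale, with a Pearson r of 0.0495 over the 6336 regions and the same sign in 58.8%. For the summit percentile the median difference was 5.73 points in RH and 3.23 in WT, with a Pearson r of 0.189 and the same sign in 72.7%. With each difference taken relative to the median of its genotype, the same sign was found in 52.8% of regions for width share and in 62.1% for percentile. The points of each cloud share their libraries, so neither r is a test.

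The test of the difference itself, the treatment by genotype term in limma, called 0 regions for width share and 0 for summit percentile. At an unadjusted p under 0.05 it gave 229 regions (3.61%) and 293 regions (4.62%). The fit has 4 residual degrees of freedom, with 2 libraries in each of the 4 groups. Among the named regions, Nrg1 had the widest gap for width share, with -1.68 in RH and -0.36 in WT, and Slc26a4 had 1.21 in RH and 0.04 in WT, both without passing the term (adjusted p = 0.9998 and 0.9998, limma). Plpp4 had -0.92 in both genotypes.

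**Figure D5:**
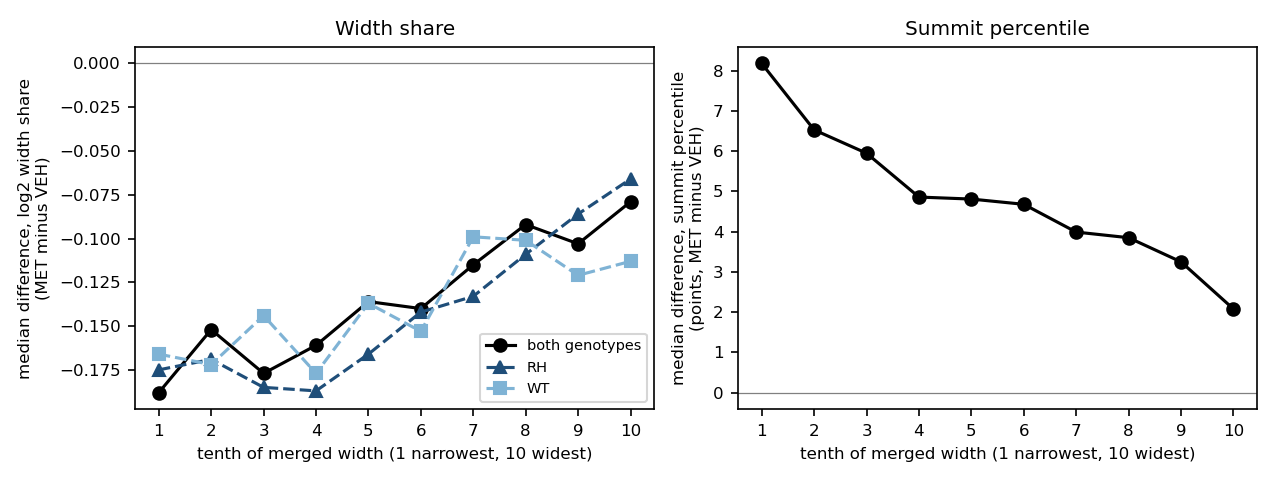
Median difference between MET and VEH over regions grouped into 10 bins of merged width, from the narrowest (1) to the widest (10): log2 width share for both genotypes together, RH and WT (left) and summit percentile in points (right). Width differences run from -0.19 in the narrowest to -0.08 in the widest bin, and percentile differences from 8.18 to 2.08 points.

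Over both genotypes together, both median differences were nearest to 0 in the widest regions. With the regions in 10 bins of merged width, of 633 or 634 each, the median width share difference was -0.19 in the narrowest bin, with a median merged width of 6.6 kb, -0.14 in the fifth, and -0.08 in the widest, with a median merged width of 68.7 kb. In RH it was -0.18 in the narrowest and -0.07 in the widest bin, and in WT -0.17 and -0.11, with -0.10 in the seventh bin, the one nearest to 0 in WT. The median percentile difference was 8.18 points in the narrowest bin, 4.81 in the fifth and 2.08 in the widest. Wide regions also ranked higher in all libraries, with medians of 91.1 to 91.5 in MET and 87.8 to 91.2 in VEH in the widest bin, against 65.8 to 68.4 in MET and 49.5 to 66.5 in VEH in the narrowest. Regions near the top of the percentile scale have less room to rise, and the part of this in the trend over bins was not tested.

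The percentile difference also varied with position relative to genes. Regions with a start site ranked at medians of 81.5 to 82.5 in MET and 74.8 to 81.8 in VEH, with a median difference of 3.81 points. Regions in genes without a start differed by 5.4 points, and those outside protein-coding genes, which ranked at 58.9 to 61.7 in MET and 43.9 to 58.5 in VEH, by 7.24 points. The lower-ranked classes had more room to rise on the percentile scale, and the part of this was not tested. The share of regions with no overlap and a higher percentile in MET was 10.2%, 10.4% and 9.33% in these classes, near the 10.1% of all regions. For a smaller width share it was 2.92%, 2.76% and 2.59%, near the 2.83% of all. Regions whose starts reach 10 CG or more (2550) and those below (914) had median width share differences of -0.14 and -0.13 and median percentile differences of 3.5 and 4.83 points.

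Regions over known Polycomb targets were covered over most of their width under both treatments. The widest region of all, over the Hoxc cluster (chr15:102721201-103153400), was covered over 413.2 and 416.4 kb in RH MET and 425.6 and 420.6 kb in WT MET, against 371 and 423 kb in RH VEH and 406.2 and 423.6 kb in WT VEH, and RH VEH 1 alone was below 400 kb. Its percentile was 97.6 to 98.9 in MET and 98.5 to 99.2 in VEH. The region of Hoxa9, a homeobox gene of stem cells and leukemia (chr6:52200401-52333600), was covered over 126.2 and 124.4 kb in RH MET and 126.8 and 127.2 kb in WT MET, against 119.4 and 126.6 kb in RH VEH and 130 and 126.2 kb in WT VEH. Its log2 width share difference was -0.19 ± 0.20, -0.06 beyond the median of all regions, and -0.05 without RH VEH 1 and -0.35 without RH VEH 2. The MET mean of 126.15 kb exceeded the VEH mean of 125.55 kb by less than the SD of either treatment.

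The next 4 regions by width also overlapped between treatments in covered length. Lhx1, a homeobox regulator of kidney and head (chr11:84513001-84810400), was covered over 282 ± 9.69 kb in MET and 268 ± 35.7 kb in VEH (SD, n = 4 each). Pax2, a regulator of kidney and eye (chr19:44578401-44862000), was covered over 272 ± 6.24 kb in MET and 273 ± 9.28 kb in VEH. The region at Mthfsd, which also holds the forkhead gene Foxf1, gave 254 ± 12.3 kb in MET and 247 ± 28.3 kb in VEH, and that at Tead1, a transcription factor of the Hippo pathway, gave 203 ± 22.7 kb in MET and 181 ± 47.1 kb in VEH. RH VEH 1 had the shortest covered length in all 5 of these regions.

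Other regulators of development overlapped between treatments too. Hoxd11 gave 195 ± 11.9 kb in MET and 177 ± 20.4 kb in VEH, Pax6, which controls eye development, gave 49.5 ± 0.342 kb in MET and 51.3 ± 4.20 kb in VEH, and Gata4, which acts in heart and gut formation, gave 109.8 ± 6.53 kb in MET and 97.8 ± 10.4 kb in VEH (SD, n = 4 each). Cdkn2a, the locus of the cell cycle inhibitors p16 and p19, was covered over 49.4 and 49.4 kb in RH MET and 52.4 and 50.4 kb in WT MET, against 43.2 and 51 kb in RH VEH and 51.4 and 48 kb in WT VEH. Its percentile was 94.0 ± 1.21 in MET and 94.1 ± 1.32 in VEH. Length and rank at Cdkn2a both overlapped between treatments, and RH VEH 1 was the shortest.

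Regulators of blood lineages were also covered in all 8 libraries. Meis1, a homeobox partner of Hox proteins in stem cells, was covered over 22.3 ± 0.757 kb in MET and 23.4 ± 1.12 kb in VEH, and Gata2 over 21.8 ± 1.30 kb in MET and 21.8 ± 3.30 kb in VEH. Ebf1, a B-lineage factor over which 4 regions lay, had its start in one (chr11:44600001-44650800) that was covered over 33.8 and 33.6 kb in RH MET and 37.2 and 37.8 kb in WT MET, against 21.8 and 24.8 kb in RH VEH and 25.8 and 35.2 kb in WT VEH. Its log2 width share difference was 0.22 ± 0.21 (0.07 to 0.34 with 1 library left out) (limma adjusted p = 0.823), with overlap between treatments, and the lowest of the values with 1 library left out came without RH VEH 2. Pax5, which fixes B-cell identity, had a difference of -0.09 ± 0.17 (-0.18 to -0.03 with 1 library left out) and Gata3, a T-lineage factor, one of -0.16 ± 0.20 (-0.31 to -0.04 with 1 library left out), nearest to 0 without RH VEH 1. For Wt1, a zinc finger factor mutated in some leukemias, it was -0.09 ± 0.21 (-0.22 to 0.10 with 1 library left out). Sardh, a mitochondrial enzyme of sarcosine breakdown, had no region called in all 8 libraries.

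None of 17 gene lists held a region past the limma threshold for either measure. A list gene counted as lying in a region where its span shared at least 1 bp with it. The lists hold known genes and were chosen with earlier results of these data known. Where a list gene is named because its treatments did not overlap, it was picked after its values were seen. Counts of regions without overlap stand beside the background of 0.268% and 2.83% for width share and 10.1% and 0.0947% for percentile. Of 100 developmental transcription factors of other tissues, 98 lay in a region, and Nkx2-1, a regulator of lung and thyroid (chr12:56505201-56550200), had a smaller share in MET, with 286 and 249 ppm in RH MET and 277 and 232 ppm in WT MET, against 391 and 320.4 ppm in RH VEH and 299.7 and 310.3 ppm in WT VEH. By percentile, Pax7, a regulator of muscle stem cells, had percentiles of 93.4 to 96.4 in MET libraries and 85.3 to 91.5 in VEH libraries, and Olig2, which specifies oligodendrocytes, had percentiles of 98.1 to 98.3 in MET libraries and 96.4 to 97.4 in VEH libraries. These were 1 of 96 regions of the list with a smaller share and 2 of 96 with a higher percentile, both below the share over all regions. Of 39 Hox genes, 32 lay in 5 regions, none of which separated the treatments, with a median width share difference of -0.17 beside -0.13 for all regions.

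Among 55 ligands and inhibitors of Wnt, BMP, FGF and hedgehog signalling, 53 lay in a region. Inhibitors and a ligand had a smaller share in MET. Wif1, a secreted Wnt inhibitor (chr10:121025201-121042600), had 90.0 and 92.6 ppm in RH MET and 68.2 and 52.9 ppm in WT MET, against 99.0 and 121 ppm in RH VEH and 110.5 and 94.2 ppm in WT VEH, a difference of -0.51 ± 0.20 (limma adjusted p = 0.790). Nog, the BMP antagonist noggin, had 176 to 196 ppm in MET libraries and 197 to 258 ppm in VEH libraries, and the ligand Wnt7b had 236 to 267 ppm in MET libraries and 279 to 398.5 ppm in VEH libraries. Higher percentiles in MET were found at Dkk1, another Wnt inhibitor, with 80.6 to 83.1 in MET libraries and 71.0 to 79.7 in VEH libraries, at Wnt5a, with 78.0 to 80.8 in MET libraries and 68.6 to 77.4 in VEH libraries, and at Inhbb, an activin subunit, with 95.5 to 97.7 in MET libraries and 91.5 to 95.05 in VEH libraries. The 3 of 54 regions with a smaller share stand beside a background of 2.83%, and the 3 with a higher percentile beside 10.1%.

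Lists of blood cells held fewer regions. Of 30 lymphoid genes 15 lay in one, and Flt3, the cytokine receptor of early progenitors (chr5:147387001-147403800), had 113 and 89.4 ppm in RH MET and 69.7 and 84.1 ppm in WT MET, against 128 and 113 ppm in RH VEH and 114 and 114 ppm in WT VEH, with the 4 VEH libraries within 15 ppm of each other. Its highest summit averaged a percentile of 87.6 ± 2.25 in MET and 87.1 ± 5.13 in VEH. Ikzf3, a lymphoid zinc finger factor, had a percentile of 99.3 to 99.8 in MET libraries and 98.4 to 99.3 in VEH libraries. Of the 22 lymphoid regions, Flt3 was the 1 with a smaller share, beside 2.83% of all regions. Ikzf3 was the 1 with a higher percentile, beside 10.1%. Of 28 myeloid genes 7 lay in a region, among which Prtn3, a granule protease of neutrophils, had a percentile of 68.4 to 79.0 in MET libraries and 56.6 to 66.5 in VEH libraries. It was 1 of 7 regions of that list, beside 10.1% of all regions. Cebpe, a factor of granulocyte maturation, had a width share difference of -0.36 ± 0.23 (-0.55 to -0.16 with 1 library left out) with overlap, nearest to 0 without RH VEH 1.

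Of 32 stem cell and self-renewal genes 18 lay in a region, and Igf2bp2, an RNA-binding protein of fetal stem cells, had a percentile of 96.6 to 98.7 in MET libraries and 89.6 to 95.4 in VEH libraries. It was 1 of 22 regions of the list, below the 10.1% of all regions. Cdkn1c, the quiescence factor p57, had a width share difference of -0.28 ± 0.19 (-0.38 to -0.15 with 1 library left out). Of 24 erythroid and megakaryocyte genes 5 lay in a region and none separated the treatments. The one with the smallest limma p for width was Slc4a1, the red cell anion exchanger band 3, at -0.10 ± 0.18 (-0.19 to -0.01 with 1 library left out). Of 15 mast cell, basophil and eosinophil genes 3 lay in a region, and Epx, eosinophil peroxidase, had a difference of 0.27 ± 0.21 (0.14 to 0.43 with 1 library left out). Of 30 inflammatory and interferon genes 9 lay in a region, and Il1r1, the interleukin-1 receptor (chr1:40256401-40275200), had 79.5 and 86.1 ppm in RH MET and 63.8 and 85.3 ppm in WT MET, against 93.8 and 113 ppm in RH VEH and 130.2 and 109.6 ppm in WT VEH. Il1r1 was the 1 of 9 regions of that list with a smaller share, beside 2.83% of all regions.

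Of 20 stromal and endothelial genes 12 lay in a region. Cxcl12, the niche chemokine, and Lepr, the leptin receptor of marrow stroma, ranked higher in MET, 2 of the 12 regions of the list beside 10.1% of all regions. Cxcl12 had a percentile of 88.3 to 91.6 in MET libraries and 82.6 to 87.4 in VEH libraries, and Lepr had percentiles of 80.6 to 83.4 in MET libraries and 74.7 to 78.0 in VEH libraries. Pparg, the regulator of fat cells, had a width share difference of -0.51 ± 0.21 (-0.65 to -0.41 with 1 library left out) with overlap between treatments. The median percentile difference of this list was 2.05 points, beside 4.69 for all regions.

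Genes of the drug's own pathways were looked at as a list. Of 42 genes of metformin transport, AMPK and energy metabolism, 22 lay in a region. Slc2a1, the glucose transporter GLUT1 (chr4:119099201-119122800), had 88.3 and 69.9 ppm in RH MET and 93.4 and 66.1 ppm in WT MET, against 96.4 and 173 ppm in RH VEH and 106 and 111 ppm in WT VEH. Its covered length was 10 and 8.6 kb in RH MET and 12.6 and 11 kb in WT MET, against 7.4 and 23.6 kb in RH VEH and 14 and 14.4 kb in WT VEH, with RH VEH 1 the shortest and RH VEH 2 the longest, so that the separation holds for the share and not for bp. The log2 difference was -0.59 ± 0.23 (limma adjusted p = 0.790).

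Percentiles at 3 more genes of the list were higher in every MET library. Acaca, the acetyl-CoA carboxylase that AMPK phosphorylates, had percentiles of 42.0 and 45.8 in RH MET and 42.6 and 53.3 in WT MET, against 27.1 and 8.03 in RH VEH and 37.4 and 24.5 in WT VEH. Prkag2, a regulatory subunit of AMPK, had percentiles of 64.4 to 71.0 in MET libraries and 47.5 to 58.5 in VEH libraries, and Igf1, insulin-like growth factor 1, had percentiles of 79.5 to 85.3 in MET libraries and 68.5 to 78.1 in VEH libraries. Slc22a3, an organic cation transporter that carries metformin (chr17:12503801-12510200), overlapped in both measures, with a width share difference of -0.13 ± 0.22 (-0.31 to 0.00 with 1 library left out). The 3 of 24 regions with a higher percentile stand beside the 10.1% of all regions, and the list's median difference was 5.27 points beside 4.69.

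Other metabolic and chromatin lists held no region that separated the treatments. Mitochondrial complex I, the target of metformin, had 3 of 30 genes in a region. Ndufa10 had a difference of -0.34 ± 0.20 (-0.41 to -0.20 with 1 library left out). Its region also overlaps Olfr1416 and lies mostly before the start printed for Ndufa10 in the annotation. The methionine and one-carbon cycle had 9 of 30, with Bhmt2, a homocysteine methyltransferase, at -0.66 ± 0.34 (-0.98 to -0.41 with 1 library left out). The histone and DNA methylation machinery had 13 of 33, with Phf19, an accessory protein of Polycomb repressive complex 2, at -0.38 ± 0.19 (-0.49 to -0.28 with 1 library left out). Cell cycle inhibitors and tumour suppressors had 7 of 16, with Cdh1, the adhesion protein E-cadherin, at 0.49 ± 0.21 (0.33 to 0.66 with 1 library left out). Housekeeping genes had 2 of 28, Psmb2 and Reep5, and Reep5 had a difference of -0.18 ± 0.19 (-0.30 to -0.10 with 1 library left out).

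Of 20 imprinted genes 13 lay in a region. Of the 13 regions 1 had a higher and 1 a lower percentile without overlap, beside 10.1% and 0.0947% of all regions. Gnas, the stimulatory G protein locus, had a higher percentile in MET, with 87.8 to 91.4 in MET libraries and 82.6 to 87.4 in VEH libraries, and the region of Phlda2 the lower one given above for Slc22a18. Igf2, a growth factor on the same chromosome (chr7:142643401-142682600), had percentiles of 94.99 to 96.4 in MET libraries and 92.4 to 95.4 in VEH libraries, with overlap. Mest, the gene of the list with the smallest limma p for width, had a difference of -0.36 ± 0.19 (-0.47 to -0.23 with 1 library left out).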

How the data were processed

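H3K27me3 ChIP-seq of 8 libraries from mouse Lin-ckit+ marrow cells was used, 2 in each of the RH MET, WT MET, RH VEH and WT VEH groups, and 1 input library was not used. Per the submitters' processing notes, reads were handled with bcl2fastq 2.20 and BWA 0.7.12 on mm10. The peak caller is not given in the sources used here. The authors deposited, per the file headers, 1 summit and 1 interval track for each library and 1 merged track, and the score of each summit is its height. The unit of that height and any scaling between libraries are not stated, so heights were compared through ranks within a library. No read counts were used, so depth is unknown and no counting interval is given.

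Intervals lay on a 200 bp grid. Covered bp of each region was divided by the autosomal covered bp of the library (width share, in ppm) and tested on the log2 scale. The summit percentile is the mid-rank of the highest summit of a region among the autosomal summits of its library. Values per library were compared by two-sided exact permutation over 70 assignments, with Benjamini-Hochberg adjustment over 6 values. All 6336 regions were fitted with limma 3.58.1 in R 4.3.3, with genotype and treatment as terms, MET minus VEH, and Benjamini-Hochberg adjustment over all regions, and the threshold was an adjusted p of 0.05. Scripts ran on Python 3.11.15 and were tested on simulated data. No label ties libraries to animals, so a p-value here speaks of variation among libraries only, and part of it could be technical. No libraries held identical values: over 28 pairs the Pearson r was 0.825 to 0.916 for log2 width share and 0.875 to 0.915 for percentile.

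The regions, the gene lists and the tests were chosen with earlier results of these data known. Named regions are the 8 largest width differences each way and the 6 largest percentile differences each way among regions at a protein-coding gene whose treatments did not overlap, the region of each of 17 lists with the smallest limma p for width, 14 reference genes and the 5 widest regions. Other list genes whose treatments did not overlap were named after their values were seen. Gene names, positions and promoters come from RefSeq on GRCm38.p6, in which all 566 list genes were found. Regions picked by difference or width are named after the gene that covers most of them, with predicted genes used only where no other overlaps. The gene named for a list by its smallest limma p is given at the region with that p. Reference genes are given at the region that overlaps them most. Some genes that this rule names are not reported here.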

Additional observations from a re-analysis of the deposited data

Results flagged for a closer look

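Within treatments of 4 libraries, 66 groups of values of named regions were checked for one library far from the other 3, and 4 were found, while chance gives about 1 in 20. At Zcchc24 the width share of RH MET 2 was 156.0 ppm, against 97.1 to 98.6 ppm in the other 3 MET libraries. At Gabrr1 the width share of WT VEH 1 was 80.2 ppm, against 54.4 to 55.6 ppm in the other 3 VEH libraries. At Col6a4 the summit percentile of WT MET 1 was 66.1, against 47.2 to 50.1 in the other 3 MET libraries, and that of RH VEH 1 was 7.02, against 22.2 to 24.5 in the other 3 VEH libraries.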

How the results depend on the processing

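Depth is unknown, 2 libraries in each group limit every test, and values of regions share their libraries. limma called 0 regions in either direction and either measure under every alternative run, with smallest adjusted p of 0.0532 for width share and 0.0545 for percentile when only intervals with a summit height of at least 15 entered. Over regions, deviations of same-numbered libraries from their group means had r of -0.034 to 0.113. With 2 libraries in each group this cannot show whether the replicate numbers pair libraries, and the labels do not say. With the replicate block limma again called 0 regions, with smallest adjusted p of 0.668 for width share and 0.182 for percentile.

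Counts of regions without overlap between treatments moved most. For width share they were 63 higher and 67 lower in MET with median centring, 43 and 59 with equal interval numbers, 50 and 84 with the total taken within the regions, and 47 and 11 in covered bp. Regions at least 50% covered in every library gave 0 and 60, and a summit height of at least 15 gave 2 and 266. For percentile they were 81 higher and 67 lower with equal interval numbers, 78 and 84 among the regions alone, and 100 and 89 with the mean summit height. Subtracting the library median, an alternative chosen after seeing the data, gave 99 and 561. Regions at least 50% covered gave 188 and 2, and a summit height of at least 15 gave 600 and 1. Leaving out 1 library gave 41 to 67 higher and 241 to 458 lower for width share, and 785 to 1814 higher and 10 to 30 lower for percentile. These counts can only stay or rise when a library is left out.

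The difference in median summit percentile was 6.08 points with an exact p of 0.0556 within genotype, 3.18 (p = 0.0571) in regions at least 50% covered, 11.1 (p = 0.0571) with a summit height of at least 15, and 0.560 (p = 0.486) with equal interval numbers. The median summit height as deposited, added after seeing the data, differed by 10.25 (exact p = 0.0571). Leaving out 1 library gave 4.78 to 7.71 points. It gave -7.55 to -3.71 points for the share of covered length in the regions, -8.68 to -4.89 ppm for the median width share, -2.31 to -0.806 points for the share of the widest regions, and 0.0462 to 0.130 for intervals per region. The median covered percentage ran from -3.98 to 6.02 and turned sign to -1.28 without WT MET 2 and to -3.98 without RH VEH 1. Intervals per region turned sign to -0.0509 with equal interval numbers.

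Of 2206 values of named regions under alternatives, 205 had the opposite sign to the value reported, spread over 64 of 124 differences. Of these, 3 were of differences whose libraries did not overlap between treatments, the percentile differences of Epb41l4b, at -4.56 with equal interval numbers and -0.487 among the regions alone, and of Zbed3, at -1.64 with the mean summit height. The cause was not tested.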
